A study of Mus musculus with 2 samples.

Results

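VLMC, short for vascular leptomeningeal cell, was the deposited label of 274 nuclei among the 8171 labelled nuclei of this single nucleus RNA sequencing (snRNAseq) data set. A nucleus was taken when its edited subclass label was VLMC and it lay outside the set that the authors kept as neurons. Of these nuclei, 113 came from the male library, where they were 2.82% of 4003 labelled nuclei (exact Clopper-Pearson 95% interval 2.33% to 3.38%). The other 161 came from the female library, where they were 3.86% of 4168 (3.30% to 4.49%). With 1 library of each sex the 2 shares were not tested, and the intervals, like all others given here, cover counting error only.

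Both libraries came from mice of the strain Atf3-CreER::Sun1-sfGFP, with the genotype Atf3-CreER:+/wt and SUN-SfGFP:+/wt, older than 7 weeks, and both were labelled mTBI (mild traumatic brain injury). Tamoxifen was given 4 and 5 days after the injury, and the injured side of the cerebral cortex was taken at 7 days post injury (dpi), with 4 animals pooled per library. The CreER is driven by the Atf3 locus, so a cell gains the nuclear envelope reporter Sun1-sfGFP if Atf3 is active while tamoxifen is present, and nuclei positive for GFP and the DNA dye DRAQ5 were sorted. No uninjured or unsorted nuclei were analysed here, so no value below is a response to injury. The library titled F carries the word male in 2 other labels. Xist, the RNA of the inactive X chromosome, had a unique molecular identifier (UMI, 1 counted RNA molecule) in 158 of its 161 VLMC nuclei, and it is called the female library below.

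Vascular leptomeningeal cells are the fibroblast-like cells of the pia, the arachnoid and the walls of larger brain vessels. They are known for secreting collagens and laminins of the basement membrane, for making retinoic acid and bone morphogenetic proteins, and for transporters that handle solutes between the blood, the cerebrospinal fluid and the brain. In the cortex they are few beside neurons and glia, and after open lesions fibroblasts of this kind are known to take part in scars.

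Summed over nuclei, the VLMC label held 486708 (male) and 1004991 (female) UMIs, with a median of 3424 and 5120 UMIs per nucleus. For comparison, the 4028 nuclei labelled Micro-PVM (microglia and perivascular macrophages) had medians of 1298.5 and 3012.5 UMIs, and the 115 nuclei labelled Astro (astrocytes) had medians of 2637 and 5286 UMIs. Levels are given below as CPM (counts normalised to the size of each sum), in the order male then female library. One UMI is worth 2.05 and 0.995 CPM in the VLMC sums, 0.401 and 0.124 CPM in the Micro-PVM sums, and 6.19 and 2.18 CPM in the Astro sums, so low levels are least certain in Astro. No doublet caller was run. The 2 libraries shared 1 labelled barcode, which was not a VLMC nucleus.

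The VLMC label did not cover 1 kind of nucleus. Among the 26 deposited clusters, VLMC was the most frequent label in clusters 11 and 25, which held 177 and 24 VLMC nuclei, together 201 or 73.4% of them. The other 73 nuclei lay in clusters led by another label. Of these, 49 were in cluster 15 and 20 in cluster 21, both led by the label SMC-Peri (smooth muscle cells and pericytes), and 4 were in cluster 16, which was led by Astro. VLMC nuclei made up 79.7% of the 222 nuclei of cluster 11 and 75% of the 32 nuclei of cluster 25, but 36.8% of the 133 nuclei of cluster 15 and 27.8% of the 72 nuclei of cluster 21.

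**Figure D1:**
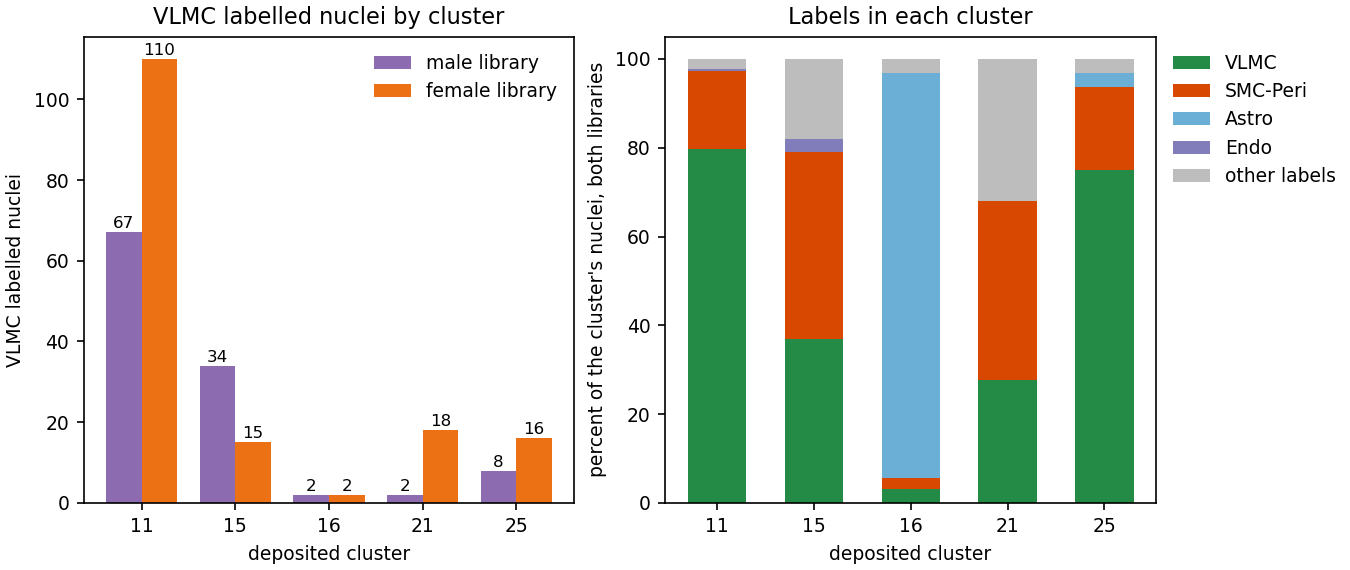
Left, number of VLMC labelled nuclei (vertical axis) in each deposited cluster (horizontal axis), with 1 bar per library. Right, percent of all labelled nuclei of each cluster that carry each label, both libraries together. Cluster 11 held 67 and 110 VLMC nuclei in the male and female library, and clusters 15 and 21 were led by SMC-Peri.

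The mix of clusters differed between the libraries. Cluster 15 held 34 of the 113 male VLMC nuclei (30.1%, 95% interval 21.8% to 39.4%) and 15 of the 161 female ones (9.32%, 5.31% to 14.9%). Cluster 21 held 2 male (1.77%) and 18 female nuclei (11.2%). For both clusters the intervals of the 2 libraries did not overlap, while cluster 11 held 59.3% and 68.3% and cluster 25 held 7.08% and 9.94% of them. A level in the whole VLMC sum is therefore a blend whose proportions differ between the libraries, and the levels in the single clusters are given beside it.

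The 3 genes that mark the label were checked first. Dcn encodes decorin, a small proteoglycan that binds collagen fibrils (GRCm38 chromosome 10, 97479609 to 97518143, plus strand). Dcn was at 69.9 and 145 CPM in the VLMC sums, at 0.401 and 0.249 CPM in Micro-PVM and at 0 in both Astro sums. By cluster, Dcn was at 198 and 213 CPM in the VLMC nuclei of cluster 11 and at 68.4 and 192 CPM in those of cluster 25, and it had no UMI in those of clusters 15 and 21. The groups did not overlap, and within the label the 2 pairs of clusters were as far apart as VLMC and the other labels.

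Col1a2, a chain of type I collagen (chromosome 6, 4504814 to 4541544, plus strand), was at 146 and 205 CPM in VLMC, 2.01 and 2.36 CPM in Micro-PVM and 12.4 and 13.1 CPM in Astro. It reached 275 and 250 CPM in cluster 11 and 524 and 394 CPM in cluster 25, against 19.0 and 13.8 CPM in cluster 15 and 0 in cluster 21. Bgn, the proteoglycan biglycan (chromosome X, 73483602 to 73495933, plus strand), was sparse, at 6.16 and 25.9 CPM, with all of its 29 UMIs in clusters 11 and 25. Bgn did not pass the filter on low counts and was not tested.

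Single nuclei gave the same picture at the depth of these libraries. A Dcn UMI was found in 86 of 274 VLMC nuclei (31.4%, 25.9% to 37.2%, median depth 4585 UMIs), in 3 of 4028 Micro-PVM nuclei (0.0745%, median depth 2187 UMIs) and in 0 of 115 Astro nuclei, which allows a share of up to 2.61%. With every nucleus thinned to 2300 UMIs and shallower nuclei left out, 51 of 219 VLMC nuclei and 1 of 1883 Micro-PVM nuclei had one. In clusters 11 and 25 together the share was 42.8% (86 of 201), and in cluster 15 it was 0 of 49, which allows up to 6.12%, although the nuclei of cluster 15 were deeper (median 7840 against 3549 UMIs).

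The longer list of 20 VLMC markers went the same way. All 20 had a UMI in both VLMC sums, and their summed level was 4999 and 7469 CPM in VLMC, 119 and 62.9 CPM in Micro-PVM and 204 and 284 CPM in Astro. Within the label the sum was 12092 and 11579 CPM in cluster 11 (19 of 20 markers with a UMI in each library) and 7635 and 7560 CPM in cluster 25 (11 and 13 of 20). It was 778 and 788 CPM in cluster 15 (8 and 7 of 20), most of it Slc6a20a at 607 and 629 CPM. In cluster 21 it was 166 and 28.3 CPM, from 2 markers in each library. The data therefore carry the label for clusters 11 and 25 and go against it for clusters 15 and 21, which are called by their cluster numbers here.

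**Figure D2:**
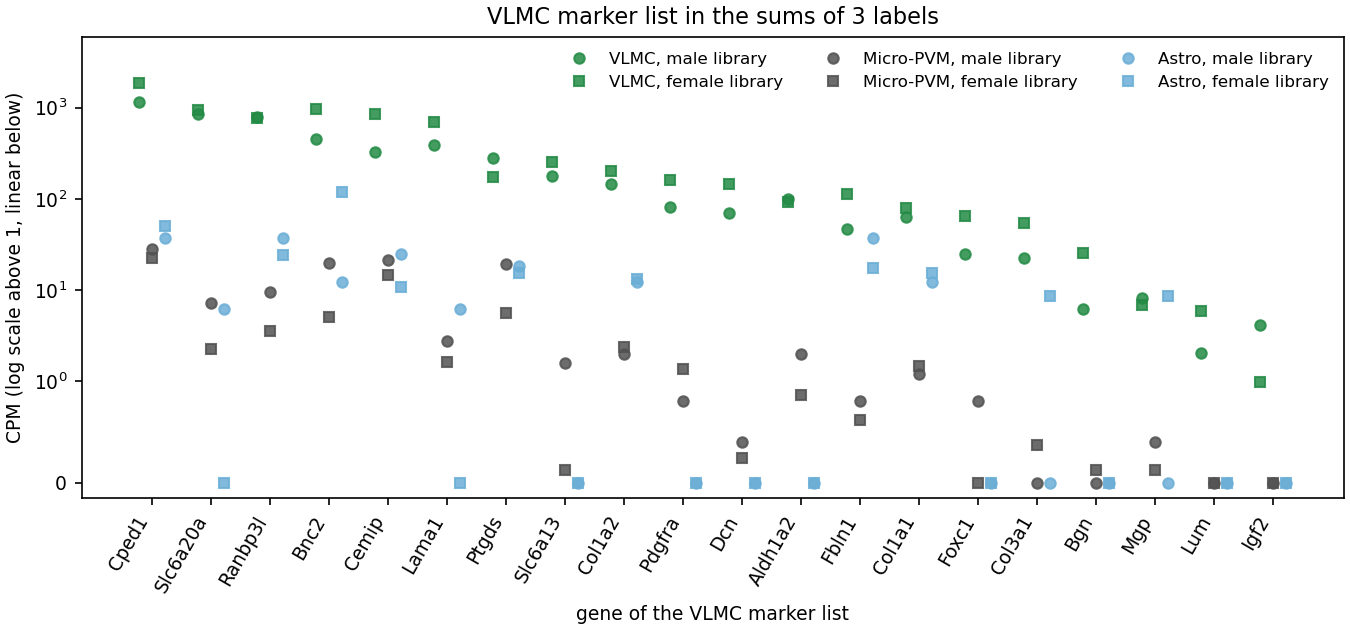
CPM (vertical axis, logarithmic above 1 and linear below) of the 20 VLMC markers (horizontal axis) in the sums of 3 labels, with 1 point per library. The VLMC points lie above those of Micro-PVM and Astro for Dcn (69.9 and 145 against at most 0.401 CPM) and for most markers, and the rarest markers (Lum, Igf2, Mgp) lie at a few CPM.

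Each of the 4 clusters had leading genes that the VLMC nuclei of the others all but lacked. These genes were found in the same nuclei that were clustered, so their levels are a description and no test was made. In cluster 11 the leading genes were Ranbp3l, a Ran-binding protein (2462 and 1505 CPM), Lama1 and Lamc3, laminin chains (Lama1 at 1215 and 1366 CPM), and 3 transporters. The transporters were Slc7a11, the cystine and glutamate exchanger (5813 and 4814 CPM), Slc6a13, the GABA transporter GAT2 (550 and 497 CPM), and Slc13a3, a carrier of dicarboxylates (531 and 403 CPM). Ndnf, a secreted factor, and Aldh1a2, which makes retinoic acid (313 and 182 CPM), completed the 8. Every one of these except Slc7a11 had no UMI in the VLMC nuclei outside cluster 11.

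Cluster 25 was led by Slc47a1 (1003 and 917 CPM) and Slc47a2 (228 and 207 CPM), extruders of organic cations, and by Abcb1a, the drug efflux pump P-glycoprotein (251 and 171 CPM). Tspan11, Adamtsl3, Slc9a2 (a sodium and proton exchanger), Gm6260 and Gm5860 made up the rest. Ranbp3l, Lama1, Slc6a13 and Aldh1a2 had no UMI in its 24 nuclei. Clusters 11 and 25 thus shared Dcn, Col1a2, Col1a1 (147 and 106 CPM against 182 and 140 CPM) and Cped1 (3101 and 3068 CPM against 1459 and 1424 CPM). They differed in the transporters among their leading genes, which were picked for being rare in the other VLMC nuclei. Of the 19 transporters of the list below, 16 had a UMI in cluster 11 in each library, and 10 and 13 in cluster 25.

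Cluster 15 was led by Htr2c, the serotonin 2C receptor (16872 and 12883 CPM), by Ttr, the carrier of thyroid hormone (3632 and 2227 CPM), and by Tmem72 (937 and 1480 CPM). Car12 (a carbonic anhydrase), Oca2, Prlr (the prolactin receptor), Vat1l and Gm14051 completed its 8. As background, Htr2c and Ttr are well known from the epithelium of the choroid plexus. Cluster 21 was led by Tmem212 (1329 and 2045 CPM), 3300002A11Rik, Ccdc180, Unc5cl, Ttc29, Ankub1, Wdr49 and Adamts20, and Ttc29 is known as a protein of motile axonemes. Its male value rests on 2 nuclei and 12042 UMIs.

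Every VLMC nucleus of these 4 clusters had at least 3 UMIs of the 8 leading genes of its own cluster, and none had 3 UMIs of those of another. The leading genes were picked in these same nuclei by their ratio over the other VLMC nuclei. This separation therefore largely follows from that choice and supports nothing further. The nuclei labelled SMC-Peri in the same clusters carried the same genes. Ranbp3l was at 1331 and 282 CPM in the SMC-Peri nuclei of cluster 11, Htr2c at 13178 and 16385 CPM in those of cluster 15, and Tmem212 at 1710 and 1091 CPM in those of cluster 21. Those nuclei were shallower, with medians of 893.5 and 1471 UMIs in cluster 11 against 2045 and 4196 UMIs for its VLMC nuclei, and 3201 and 4269 UMIs in cluster 15 against 6410 and 8489 UMIs. Whether depth moved the label was not tested. The share of mitochondrial UMIs also differed, with medians of 2.47% and 3.03% in the VLMC nuclei of cluster 21 and 3.48% and 3.99% in those of cluster 25, against 0.526% and 0.408% in cluster 11.

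**Figure D3:**
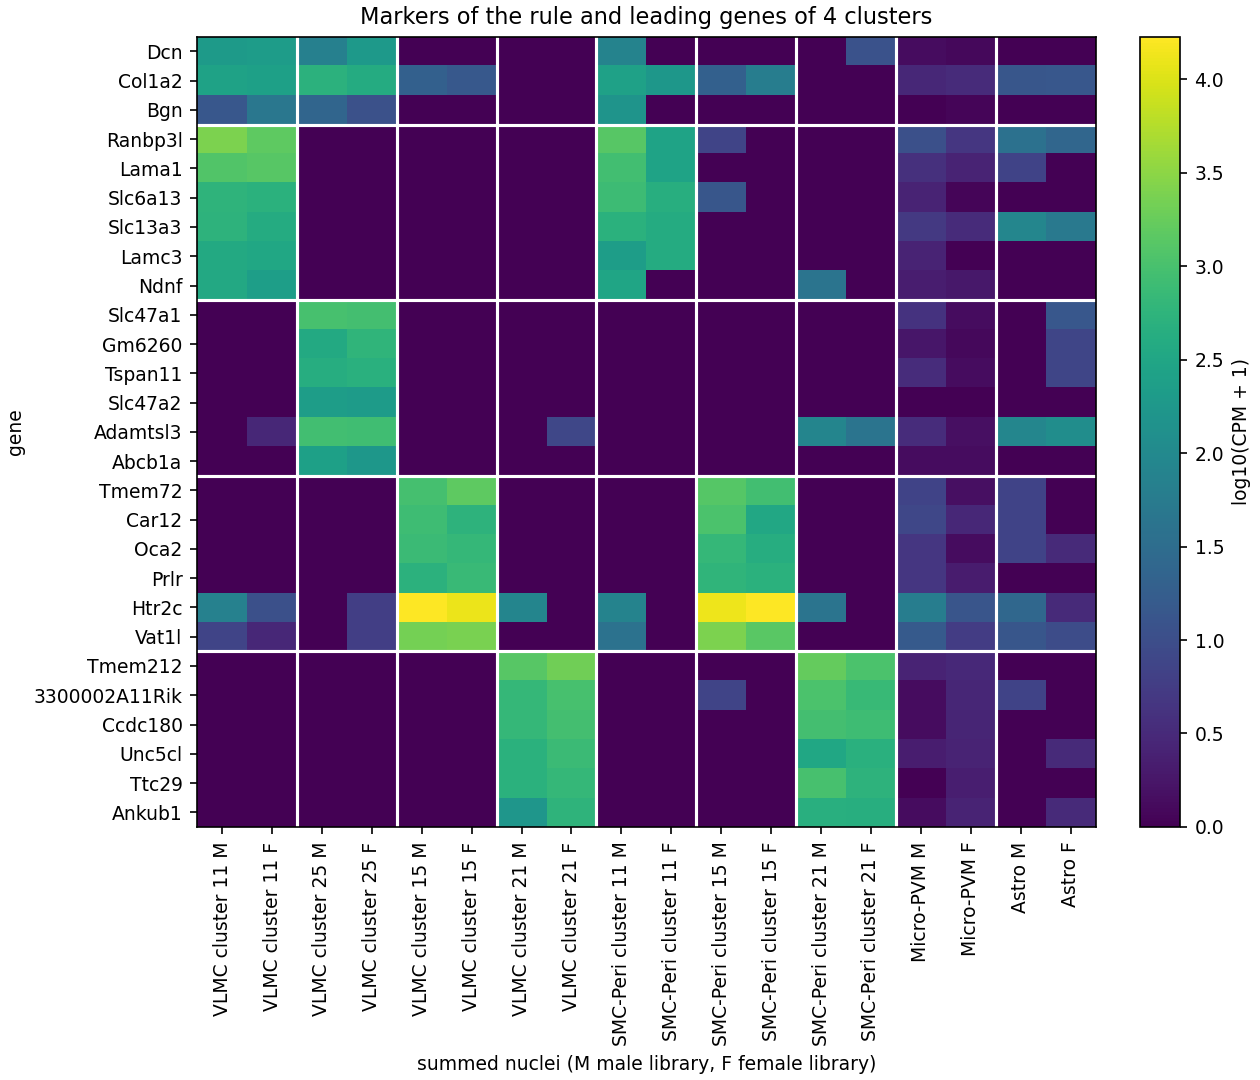
Heat map of log10(CPM + 1) for the 3 markers of the label and for leading genes of clusters 11, 25, 15 and 21 (rows) in the summed nuclei of each cluster, label and library (columns, M male and F female). Each set of leading genes is bright in its own cluster, in VLMC and in SMC-Peri nuclei alike, and Dcn, Col1a2 and Bgn are bright in clusters 11 and 25.

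To ask which genes set the VLMC nuclei apart from other non-neuronal nuclei of the same sort, UMIs were summed per library and label and tested with edgeR (quasi-likelihood test, Benjamini-Hochberg adjustment over all 9462 genes tested, adjusted p under 0.05). The labels were assigned from the same RNA, so these tests are not independent of them, and p-values measure only the spread between 2 libraries of pooled animals. Against Micro-PVM, 2142 genes were called higher (22.6% of those tested) and 2005 lower (21.2%). Against Astro, 881 were called higher (9.31%) and 874 lower (9.24%). In both comparisons 662 genes were called higher (7.00%) and 223 lower (2.36%). The 2 comparisons share the VLMC sums. The fit was repeated with only the 201 nuclei of clusters 11 and 25 in the VLMC sums (8435 genes tested). It called 1579 genes higher (18.7%) and 1596 lower (18.9%) against Micro-PVM, 905 higher (10.7%) and 998 lower (11.8%) against Astro, and 624 higher in both (7.40%). The lists of genes higher in both shared 398 genes, 60.1% of the first and 63.8% of the second. With the profile of near-empty barcodes (at most 50 UMIs) subtracted as free RNA, 68 of 139 named calls against Astro no longer passed. Against Micro-PVM 26 of 218 no longer passed. Only part of the genes concerned are given beside their group, so a call without this remark may be among them. The counts per gene list below are those without this subtraction. The part subtracted was set by taking every UMI of 10 neuron markers in VLMC as free RNA, so it may be too large.

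**Figure D4:**
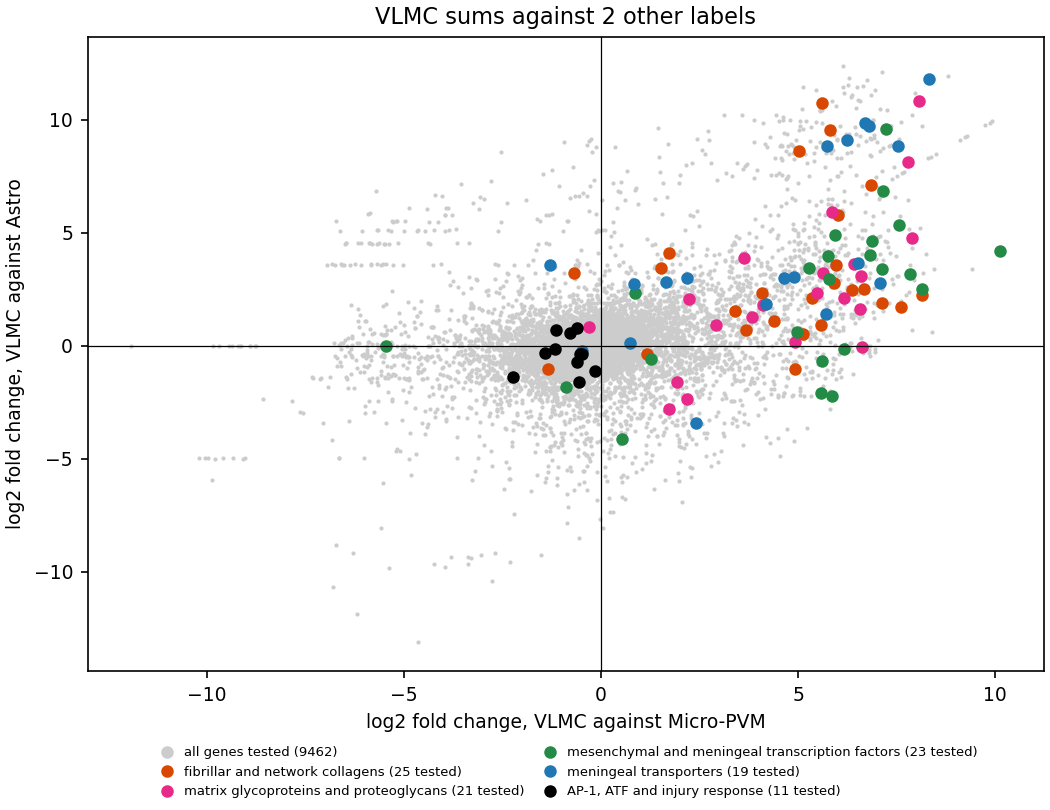
Log2 fold change of the VLMC sums against Astro (vertical axis) and against Micro-PVM (horizontal axis) for the 9462 genes tested (grey) and for the members of 5 gene lists (colours). Members of the collagen, matrix, transcription factor and transporter lists lie mostly to the right and above 0, and the 11 tested members of the AP-1, ATF and injury response list lie at or left of 0.

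Ranked by the smaller of the 2 fold changes, the 15 leading genes were Ptgdr, Gm31409, Cdh3, Lmod1, Gm29538, Clic6, Slc6a13, Kcnj13, Dcn, Lamc3, Ccr9, Lama1, Gm30624, 4930594M22Rik and Slc6a20a. Of these, 10 had their highest level in cluster 11, 3 in cluster 15, 1 in cluster 21 and 1 in cluster 25, so even the top of the list was not of 1 kind. Ptgdr, a receptor for prostaglandin D2, was at 24.7 and 87.6 CPM in VLMC with no UMI in Micro-PVM or Astro. Set against a floor of 3 UMIs over both libraries, its level was at least 235-fold higher than in Micro-PVM and at least 13.9-fold higher than in Astro. It lay in clusters 11 (63.9 and 88.1 CPM) and 25 (45.6 and 223 CPM). Ptgds, the enzyme that makes prostaglandin D2, was at 279 and 175 CPM in VLMC and was higher than in Micro-PVM by 4.05 ± 0.54 (SE) and than in Astro by 3.55 ± 0.70 on the log2 scale (adjusted p = 3.5e-05 and 0.00285, edgeR). It was highest in cluster 11, at 812 and 307 CPM. With free RNA subtracted, Ptgdr, Ptgds, Lmod1, Gm29538, Kcnj13, Gm30624 and 4930594M22Rik were no longer called against Astro (adjusted p = 0.0561 to 0.104), and by DESeq2 Ptgdr passed against neither label (adjusted p = 0.124 and 0.517).

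Lama1 was at 390 and 695 CPM in VLMC, 2.81 and 1.62 CPM in Micro-PVM and 6.19 and 0 CPM in Astro, a log2 fold change of 7.79 ± 0.56 against Micro-PVM (adjusted p = 4.22e-07, edgeR). Slc6a13 was at 177 and 253 CPM against 1.60 and 0.124 CPM in Micro-PVM (8.31 ± 0.77, adjusted p = 4.18e-06) and was at least 47.1-fold higher than in Astro, where it had no UMI. Ccr9, a chemokine receptor, was at 82.2 and 64.7 CPM in VLMC against 2 UMIs in all of Micro-PVM, and nearly all of it was in cluster 11 (256 and 125 CPM). The remaining genes of the 15 include 4 that clusters 11 and 25 all but lacked. Clic6, a chloride channel protein (382 and 130 CPM in VLMC), Cdh3, P-cadherin (76.0 and 35.8 CPM), and Kcnj13, a potassium channel (96.6 and 19.9 CPM), were highest in cluster 15, and Gm29538 (49.3 and 27.9 CPM) lay in clusters 15 and 21. With the VLMC sums cut down to clusters 11 and 25, Slc47a2, Itih2, Nkd2, Carmn and Gm42397 entered the first 15 in place of these 4 and Slc6a20a, a list made after the data were seen.

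The gene lists below are described by counts and medians beside those of all genes. Of all genes tested, 22.6% were higher and 21.2% lower against Micro-PVM, and 9.31% were higher and 9.24% lower against Astro. A member that passed the filter on low counts only through its VLMC level had to be higher there, so these counts describe the lists and support nothing further. Fewer nuclei of a kind and less RNA per nucleus cannot be told apart in such sums.

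Collagens were mostly higher in VLMC than in either label. All 25 genes of the list of fibrillar and network collagens were tested. Against Micro-PVM, 21 were higher and 1 lower, with a median log2 fold change of 5.35 beside -0.11 over all genes tested. Against Astro, 14 were higher and 1 lower, with a median of 2.35 (2.32 with the 3 genes absent from Astro set at their lower bound) beside 0.09. In clusters 11 and 25 alone the counts were 22 and 17. The summed list stood at 3267 and 3607 CPM in VLMC, at 459 and 253 CPM in Micro-PVM and at 804 and 733 CPM in Astro.

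The fibrillar collagens were shared by clusters 11 and 25. Col1a2 was higher by 5.97 ± 0.52 than in Micro-PVM and by 3.57 ± 0.61 than in Astro (adjusted p = 1.62e-06 and 0.00128, edgeR). Col1a1, at 63.7 and 80.6 CPM, was higher by 5.35 ± 0.48 and 2.13 ± 0.53. Col3a1, at 22.6 and 54.7 CPM, was called against Micro-PVM but not against Astro (2.49 ± 1.10, adjusted p = 0.147), and in clusters 11 and 25 alone it was called against both (3.31 ± 0.997 against Astro, adjusted p = 0.0272). Col12a1 and Col23a1 were highest in cluster 25 (410 and 414 CPM, and 1003 and 1595 CPM). Against Astro, Col1a2, Col1a1, Col12a1 and Col23a1 were not called with free RNA subtracted (adjusted p = 0.0545 to 0.215). The collagens Col14a1, Col4a1 and Col6a2 lost their call against Astro in the same way.

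The collagens of the basement membrane followed cluster 11. Col4a6 was at 812 and 808 CPM there and had no UMI in cluster 25. In the whole VLMC sum it was at 290 and 415 CPM against 1.20 and 0.870 CPM in Micro-PVM (8.15 ± 0.43) and 61.9 and 67.7 CPM in Astro (2.24 ± 0.34), which puts both VLMC libraries above all others. Col4a5 went the same way (261 and 386 CPM, 1.72 ± 0.39 against Astro, adjusted p = 0.0761 with free RNA subtracted). Col13a1, a collagen that spans the membrane, was at 65.7 and 137 CPM, all but 1 of its UMIs in cluster 11, and was absent from Astro.

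Col8a1, a network collagen, showed what the mix of clusters does. It was at 1181 and 471 CPM in VLMC, higher than in both other labels (6.84 ± 0.77 and 7.11 ± 1.04), but at 2125 and 2116 CPM in cluster 15, 296 and 746 CPM in cluster 25 and 12.8 and 43.1 CPM in cluster 11. The male level lay above the female one in the whole sum, while the 2 libraries were close in cluster 15, which held the larger share of the male nuclei. Col27a1 was the only collagen called lower, at 107 and 106 CPM against 308 and 157 CPM in Micro-PVM and 254 and 151 CPM in Astro, and with free RNA subtracted it did not pass against Astro (adjusted p = 0.12).

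Glycoproteins and proteoglycans of the matrix were mostly higher than in Micro-PVM. Of 31 genes 21 were tested, and 19 were higher and none lower against Micro-PVM by edgeR (0 lower at an unadjusted p under 0.05 and 0 by DESeq2). Against Astro 9 were higher and 2 lower, and in clusters 11 and 25 alone 16 of 23 were higher. The medians were 5.47 and 2.06. Nid1, which links laminin to collagen IV, was at 59.6 and 135 CPM, against 0 and 4.37 CPM in Astro (4.76 ± 0.91). Lama4 was at 74.0 and 214 CPM and Hspg2, the proteoglycan perlecan, at 59.6 and 68.7 CPM, both higher than in either label. Fbn1, fibrillin 1, was at 191 and 141 CPM and was present in all 4 clusters, between 56.6 and 296 CPM.

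Some matrix genes did not separate VLMC from Astro. Lama2 was at 327 and 642 CPM in VLMC and at 365 and 528 CPM in Astro, a difference of -0.07 ± 0.37 that did not pass the test (adjusted p = 0.944). Fn1, fibronectin, was at 18.5 and 144 CPM, and its higher female level went with cluster 25, where it was at 160 and 715 CPM. Against Astro Fn1 did not pass the test in the whole sums (1.82 ± 0.85, adjusted p = 0.174) but did in clusters 11 and 25 alone (2.52 ± 0.71, adjusted p = 0.0195). Vcan, versican, was lower than in Astro (32.9 and 11.9 against 105 and 78.6 CPM).

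Enzymes that crosslink and turn over the matrix numbered 29, of which 19 were tested. Against Micro-PVM 13 were higher and 3 lower, and against Astro 6 were higher and 2 lower, with medians of 3.91 and 1.22. Timp3, an inhibitor of metalloproteinases held in the matrix, was at 372 and 388 CPM, against 2.81 and 1.49 CPM in Micro-PVM (7.31 ± 0.51) and 99.0 and 83.0 CPM in Astro (1.90 ± 0.42, adjusted p = 0.0806 with free RNA subtracted). Adamts12, a metalloproteinase, was at 101 and 255 CPM and higher than in both. Lox, Mmp3, Mmp9, Timp1 and Plau had at most 2.05 and 0.995 CPM in the male and female library, which is 1 UMI in each, so a level above that of a few molecules was not seen for them at this depth.

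Genes of fibroblast activation were split. Of 20 genes 9 were tested. Against Micro-PVM 7 were higher and 1 lower (median 2.14), beside 22.6% and 21.2% of all genes. Against Astro 5 were higher and 1 lower (median 1.82), beside 9.31% and 9.24% of all genes. Acta2 and Tagln, contractile genes of myofibroblasts, had at most 4.11 CPM in a library, and Postn, periostin, was at 2.05 and 14.9 CPM. Fap, a surface protease of activated fibroblasts, was higher than in both labels (343 and 107 CPM, 5.15 ± 0.62 and 5.18 ± 0.94). By cluster, Fap was at 622 and 484 CPM in cluster 15 against 6.39 and 43.1 CPM in cluster 11. With only clusters 11 and 25 it was no longer called against Astro (2.86 ± 1.11, adjusted p = 0.0841). Itga11, the collagen receptor integrin alpha 11, was at 61.6 and 73.6 CPM and was higher than in both (5.50 ± 0.53 and 5.15 ± 0.88), with 342 and 129 CPM in cluster 25 and 89.5 and 90.02 CPM in cluster 11. Runx1 was lower than in Micro-PVM (53.4 and 36.8 against 1644 and 1548 CPM), and Runx2 was higher than in both (111 and 176 CPM).

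In the TGF-beta pathway 15 of 18 genes were tested. Against Micro-PVM 5 were higher and 6 lower (median -0.36), beside 22.6% and 21.2% of all genes. Against Astro 5 were higher and none lower (median 1.26), beside 9.31% and 9.24% of all genes. None was lower against Astro by DESeq2 either, and 1 was lower at an unadjusted p under 0.05. The receptors divided. Tgfbr3, the co-receptor betaglycan, was at 528 and 670 CPM against 13.2 and 5.72 CPM in Micro-PVM and 12.4 and 34.9 CPM in Astro (5.85 ± 0.50 and 4.21 ± 0.55). Tgfbr1 and Tgfbr2, the signalling receptors, were lower than in Micro-PVM (154 and 155 against 1271 and 1167 CPM for Tgfbr1) and higher than in Astro (30.9 and 48.0 CPM). Tgfbr2 did not pass against Micro-PVM with free RNA subtracted (adjusted p = 0.0588). The ligand Tgfb2 was at 195 and 44.8 CPM in the whole VLMC sums and at 342 and 159 CPM in cluster 15. In clusters 11 and 25 alone Tgfb2 did not pass the test against Micro-PVM (1.16 ± 0.63, adjusted p = 0.168, edgeR). In that fit it was lower than in Astro (-2.29 ± 0.59, adjusted p = 0.0107, edgeR).

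The retinoic acid pathway had 17 genes, of which 10 were tested. Against Micro-PVM 8 were higher and 2 lower (median 3.37), beside 22.6% and 21.2% of all genes. Against Astro 2 were higher (median 0.72), beside 9.31% of all genes. With 10 genes, the 2 lower are near the share of all genes. In clusters 11 and 25 alone 9 of 11 were higher and 1 lower against Micro-PVM, beside 18.7% and 18.9% of all genes. Against Astro 4 were higher there, beside 10.7%. Aldh1a2 was at 101 and 92.5 CPM in VLMC, against 2.01 and 0.870 CPM in Micro-PVM (5.96 ± 0.55), and at least 19.7-fold higher than in Astro, where it had no UMI. All of it lay in cluster 11. Aldh1a1, a second enzyme of the same step, was at 216 and 252 CPM but was no different by the test from Astro (192 and 306 CPM, -0.33 ± 0.40, adjusted p = 0.647). The receptor Rarb was higher than in both labels (136 and 251 CPM, 3.78 ± 0.42 and 1.51 ± 0.45, the second with adjusted p = 0.461 once free RNA was subtracted), and Dhrs3, which turns retinal back to retinol, was lower than in Micro-PVM.

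Transporters known from the meninges were all tested, 19 of 19. Against Micro-PVM 16 were higher and 1 lower, and against Astro 15 were higher and 1 lower, with medians of 4.89 and 3.001 (2.82 with the 5 genes absent from Astro at their lower bound). Slc7a11 was at 1868 and 2456 CPM in VLMC, 16.0 and 11.3 CPM in Micro-PVM (7.07 ± 0.66) and 353 and 225 CPM in Astro (2.78 ± 0.55). Slc22a6 and Slc22a8, carriers of organic anions, were at 43.1 and 57.7 CPM and at 45.2 and 66.7 CPM and had no UMI in Astro. Slc22a6 was seen in cluster 11 alone, and Slc22a8 in clusters 11, 15 and 25. Slc6a20a, a carrier of proline and other imino acids, was at 853 and 945 CPM and lay in clusters 11 (1631 and 1679 CPM) and 15 (607 and 629 CPM). Slc38a2, a carrier of neutral amino acids, was at 1960 and 1450 CPM in cluster 25 and at 217 and 190 CPM in cluster 11. Slc4a4, a bicarbonate carrier, was lower than in Astro (121 and 214 against 1708 and 1541 CPM), and Abca9 was lower than in Micro-PVM and higher than in Astro. Against Micro-PVM Abca9 was not called with clusters 11 and 25 alone (-0.36 ± 0.29, adjusted p = 0.357). With free RNA subtracted, Slc7a11, Slc22a6 and Slc4a4 did not pass against Astro (adjusted p = 0.253, 0.0773 and 0.0912), nor did Abca9 against Micro-PVM (adjusted p = 0.0898). The carriers Slc13a3, Slc16a9, Slc26a2, Slc26a7, Slc47a1 and Slc6a12 also lost their call against Astro.

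Of 14 genes tied to the arachnoid barrier, 9 were tested, with 8 higher and none lower against Micro-PVM (0 lower at an unadjusted p under 0.05 and 0 by DESeq2), and 7 higher and 1 lower against Astro. The barrier genes did not lie in 1 cluster. Cdh1, E-cadherin, had 7 UMIs in all VLMC nuclei, mostly in the male part of cluster 25 (137 and 5.18 CPM). Cldn11, the claudin of this layer, was at 2.05 and 22.9 CPM with 22.8 and 98.4 CPM in cluster 25. It was called higher than in Micro-PVM (2.23 ± 0.71), and without the female library its log2 fold change was -0.37. Abcb1a lay in cluster 25, Abcg2 was at 456 and 383 CPM there, and the tight junction gene Ocln, at 78.1 and 51.7 CPM, lay mostly in cluster 15 (140 and 180 CPM) and was not called against either label with clusters 11 and 25 alone (adjusted p = 0.41 and 0.131). Abcb1a and Abcg2 did not pass against Astro with free RNA subtracted (adjusted p = 0.0882 and 0.0723).

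Transcription factors of mesenchyme and meninges numbered 31, of which 23 were tested. Against Micro-PVM 19 were higher and 1 lower, and against Astro 12 were higher and 4 lower, with medians of 5.85 and 2.96. Foxc1, needed for the meninges to form, was at 24.7 and 65.7 CPM with no UMI in Astro, and Foxd1 was at 55.5 and 79.6 CPM with no UMI in Micro-PVM, at least 252-fold higher. Both were at 0 in clusters 15 and 21. Tbx18 was at 90.4 and 206 CPM (7.57 ± 0.68 and 5.35 ± 0.89), and Zic1, Zic2 and Zic4 were between 105 and 282 CPM and higher than in both labels. Nr2f2 was at 259 and 192 CPM (7.15 ± 0.46 and 6.84 ± 0.73), and its 133 and 118 CPM in cluster 15 show that it was not held to clusters 11 and 25. Against Astro, Foxc1, Zic2 and Zic4 did not pass with free RNA subtracted (adjusted p = 0.0668, 0.0761 and 0.119).

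Other factors were much higher in cluster 25 than in cluster 11. Bnc2 was at 4604 and 4697 CPM against 51.2 and 123 CPM, Foxp2 at 2575 and 3128 CPM against 365 and 352 CPM, and Tbx15 at 1140 and 1357 CPM against 237 and 327 CPM. Ebf2 and Osr1 went the other way, with 63.9 and 82.2 CPM and 70.3 and 64.6 CPM in cluster 11 and at most 15.5 CPM in cluster 25. Gli2 and Gli3, effectors of hedgehog signalling, were higher than in Micro-PVM and lower than in Astro (for Gli3 103 and 256 against 743 and 670 CPM), and Prrx1 was not separated from Astro (86.3 and 163 against 142 and 114 CPM). Against Astro, Bnc2, Foxp2, Gli2 and Gli3 did not pass with free RNA subtracted (adjusted p = 0.0723 to 0.28).

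Secreted growth factors and guidance cues numbered 34, of which 25 were tested, with 18 higher and 3 lower against Micro-PVM and 13 higher and 2 lower against Astro (medians 4.36 and 1.78). Of the 25, 13 were higher in both comparisons, beside 7.00% of all genes, and Bmp4, Bmp5, Bmp6 and Bmp7, ligands of the bone morphogenetic protein receptors, were among these 13. Bmp6 was at 1243 and 1554 CPM, against 14.04 and 5.10 CPM in Micro-PVM (7.07 ± 0.61) and 0 and 17.5 CPM in Astro (6.60 ± 0.70). It was at 2520 and 2611 CPM in cluster 11 and 786 and 857 CPM in cluster 15. Bmp5, at 105 and 152 CPM, was highest in cluster 25 (593 and 394 CPM), and Bmp7, at 84.2 and 97.5 CPM, had no UMI there. Bmp4, Bmp5 and Bmp7 were not called against Astro with free RNA subtracted (adjusted p = 0.0857, 0.102 and 0.114).

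Cxcl12, the ligand of the receptor Cxcr4, was at 47.3 and 97.5 CPM (5.44 ± 0.64 and 4.33 ± 0.93), in clusters 11 and 25 and not in 15 or 21. Wnt5a, at 59.6 and 101 CPM, was mostly in cluster 11 (173 and 178 CPM). The axon guidance cues Sema3a, Sema3d, Slit2 and Slit3 were higher than in both labels and were highest in cluster 25, where Slit2 was at 1573 and 1730 CPM and Slit3 at 1892 and 1362 CPM. Slit3 was called higher in the whole sums (adjusted p = 0.000665 and 0.00198, edgeR), and with cluster 11 alone its sign turned against both (-0.72 and -0.51). Igf1 and Hgf were lower than in Micro-PVM (Igf1 8.22 and 24.9 against 130 and 310 CPM), and Vegfa was lower than in Astro. With free RNA subtracted Cxcl12, Sema3a, Sema3d, Slit2, Slit3 and Vegfa did not pass against Astro (adjusted p = 0.0549 to 0.341), nor did Slit3 against Micro-PVM (adjusted p = 0.0781).

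Of 28 growth factor receptors 24 were tested. Against Micro-PVM 14 were higher and 6 lower, beside 22.6% and 21.2% of all genes. Against Astro 8 were higher and 5 lower, beside 9.31% and 9.24% of all genes. The medians were 1.17 and 0.08, the second close to that of all genes (0.09). Pdgfra, a receptor that marks fibroblasts and oligodendrocyte precursors, was at 82.2 and 160 CPM (6.34 ± 0.54 against Micro-PVM, at least 27.8-fold higher than in Astro) and lay in cluster 11 (205 and 307 CPM), with 0 and 5.18 CPM in cluster 25. Pdgfrb was at 41.1 and 93.5 CPM and was no different by the test from Astro (0.02 ± 0.54, adjusted p = 0.994). Egfr was at 1664 and 1968 CPM in cluster 25 and 320 and 215 CPM in cluster 11. Robo1, a receptor of the Slit cues, was at 532 and 932 CPM and higher than in both labels, with 1420 and 1458 CPM in cluster 11.

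Inflammatory genes and chemokines were divided. Of 30 genes 16 were tested. Against Micro-PVM 7 were higher and 6 lower (median 0.14), beside 22.6% and 21.2% of all genes. Against Astro 3 were higher and 4 lower (median 0.18), beside 9.31% and 9.24% of all genes. In clusters 11 and 25 alone 9 of 15 were higher and 3 lower against Micro-PVM, and 3 higher and 2 lower against Astro (medians 1.12 and 0.73). The shares of all genes in that fit were 18.7% and 18.9% against Micro-PVM, and 10.7% and 11.8% against Astro. Serping1, an inhibitor of complement C1, was at 32.9 and 38.8 CPM, Osmr, the oncostatin M receptor, at 43.1 and 64.7 CPM, and Vcam1, an adhesion molecule, at 82.2 and 66.7 CPM. These 3 were higher than in Micro-PVM (6.14 ± 0.78, 5.96 ± 0.64 and 5.29 ± 0.53) and were not called against Astro (adjusted p = 0.489, 0.0507 and 0.713). Il34, a ligand of the receptor Csf1r on microglia, was at 236 and 361 CPM, against 4.41 and 2.36 CPM in Micro-PVM and 0 and 4.37 CPM in Astro (6.33 ± 0.48 and 6.33 ± 0.71, adjusted p = 4.03e-07 and 4.13e-05, edgeR). It lay in cluster 11, at 735 and 705 CPM, with no UMI in cluster 25. Csf1, the other ligand of that receptor, was at 37.0 and 37.8 CPM and lower than in both labels. With clusters 11 and 25 alone Csf1 passed against neither (-0.84 ± 0.45 and -1.17 ± 0.51, adjusted p = 0.164 and 0.121), nor did it with free RNA subtracted (adjusted p = 0.0788 and 0.115). Il6, Ccl11, Ccl19, C3 and Tslp had no UMI in any VLMC nucleus, and Ccl2, Ccl7, Cxcl1 and Cxcl10 had at most 6.16 CPM.

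The 20 proliferation genes summed to 8 and 33 UMIs, or 16.4 and 32.8 CPM, and Mki67 had no UMI. The sum was 100 and 95.4 CPM in Micro-PVM, 92.8 and 37.1 CPM in Astro, 31.7 and 37.1 CPM in SMC-Peri and 36.7 and 31.9 CPM in neurons, so the female VLMC value was close to the last 3 and the male one below all of them. Anln, a gene of cell division and the sole one of the list that passed the filter, was at 0 and 1.99 CPM and lower than in Micro-PVM by edgeR (-2.54 on the log2 scale) but not by DESeq2, and 0 were called higher by edgeR or DESeq2, with 0 at an unadjusted p under 0.05.

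Atf3, the gene whose locus drives the reporter, was low in the VLMC nuclei (chromosome 1, 191170296 to 191218039, minus strand). The male sum held 3 of its UMIs and the female sum 19, or 6.16 CPM (exact Poisson 95% interval 1.27 to 18.0) and 18.9 CPM (11.4 to 29.5). Micro-PVM had 26.5 and 35.9 CPM, Astro 0 and 21.8 CPM, and the neurons 104 and 169 CPM. The barcodes with at most 50 UMIs, which hold mostly free RNA, had 40.6 and 74.7 CPM, above both VLMC sums. In the edgeR fit Atf3 passed against neither label (-1.43 ± 0.63 and -0.33 ± 0.94, adjusted p = 0.0855 and 0.874).

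An Atf3 UMI was found in 8 of 274 VLMC nuclei (2.92%, 1.27% to 5.67%), 267 of 4028 Micro-PVM nuclei (6.63%) and 865 of 2580 neurons (33.5%, median depth 5155 UMIs), beside 2 of 115 Astro nuclei (1.74%). At 2300 UMIs the counts were 3 of 219, 112 of 1883 and 414 of 2075. The interval of the Astro share (0.211% to 6.14%) held the VLMC share, and with so few nuclei a difference was not detectable. The 19 female UMIs lay in 5 nuclei and the 3 male ones in 3. Of the 19 female UMIs, 12 lay in VLMC nuclei of cluster 11 and 0 in those of clusters 15, 21 and 25. The rest of the female UMIs lay in VLMC nuclei of cluster 16, the cluster led by Astro. With free RNA subtracted Atf3 was at 0 in both VLMC sums and at 7.92 and 5.24 CPM in cluster 11, and the part of free RNA in these UMIs was not tested further. The reporter sequence itself, which the files count, had 0 UMIs in the 274 VLMC nuclei. That allows a share of up to 1.09% at 3 counts and up to 1.34% by the exact interval. It was found in 61 of 4028 Micro-PVM nuclei (1.51%, 1.16% to 1.94%) and 137 of 2580 neurons (5.31%). The exact intervals of VLMC and Micro-PVM overlapped. The reporter was also rare in Astro (1 of 115 nuclei), SMC-Peri (1 of 133) and Oligo, the oligodendrocyte label (1 of 68). With so few nuclei, VLMC was not told apart from these labels. The route by which these nuclei passed the GFP gate was not tested.

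**Figure D5:**
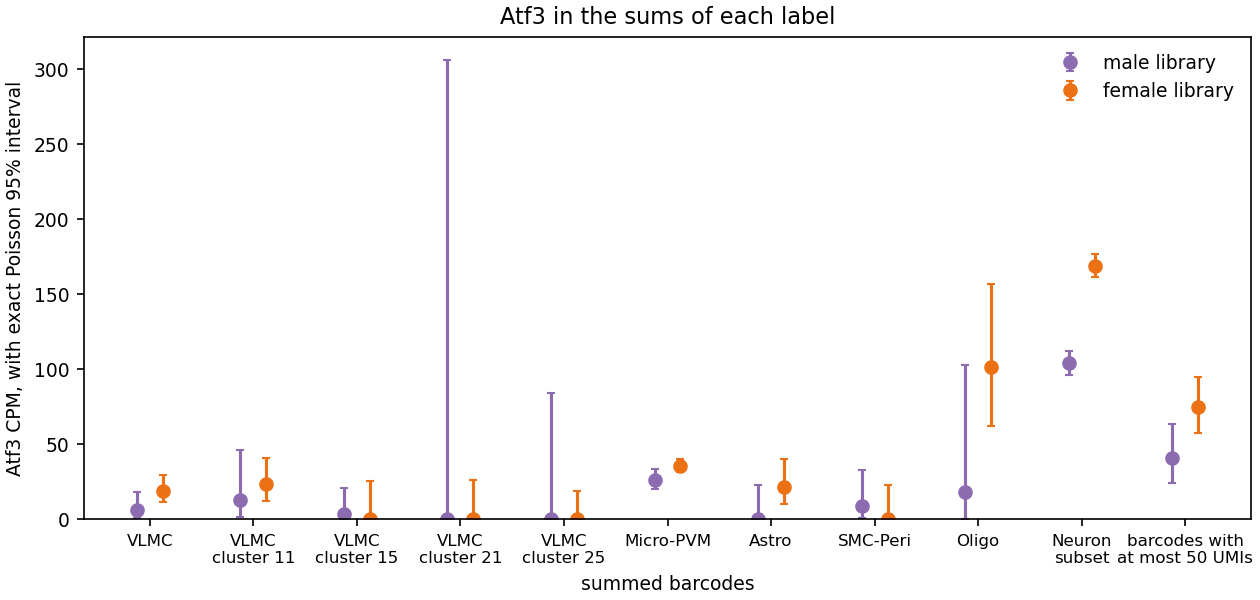
Atf3 CPM (vertical axis) with exact Poisson 95% intervals (bars) in the sums of each label, of the VLMC nuclei of 4 clusters and of barcodes with at most 50 UMIs (horizontal axis), 1 point per library. The VLMC sums (6.16 and 18.9 CPM) lie below the neurons (104 and 169 CPM) and below the near-empty barcodes (40.6 and 74.7 CPM), and the wide intervals are those of the smallest sums.

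Of the 26 genes of the AP-1, ATF and injury response list 11 were tested, and 0 were called higher in either comparison by edgeR, beside 22.6% and 9.31% of all genes, with 0 by DESeq2 and 0 at an unadjusted p under 0.05. Against Micro-PVM 2 were lower, Egr1 and Klf6, beside 21.2% of all genes, and against Astro 1 was lower, Sox11, beside 9.24% (medians -0.62 and -0.34). With 11 genes, both counts of lower genes and the 0 against Astro are near the shares of all genes. Egr1 and Klf6 did not pass by DESeq2 (adjusted p = 0.0636 and 0.102) or with free RNA subtracted (adjusted p = 0.395 and 0.223). The summed list was at 263 and 274 CPM in VLMC, 480 and 335 CPM in Micro-PVM, 297 and 303 CPM in Astro and 1831 and 1829 CPM in neurons. Fos, Fosb, Fosl1 and Junb had at most 2.05 CPM.

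Markers of other cell types were read beside these results. Summed over 9 microglia markers, among them Cx3cr1, Csf1r, P2ry12 and Tmem119, the VLMC nuclei held 44 and 63 UMIs (90.4 and 62.7 CPM) against 4236 and 3521 CPM in Micro-PVM. Of 8 perivascular macrophage markers, 1 and 3 had a UMI, and Mrc1, Cd163, F13a1 and Pf4 had none. The 10 neuron markers summed to 2507 and 2985 CPM in VLMC, 13010 and 11808 CPM in near-empty barcodes and 17038 and 12860 CPM in neurons. Without Celf2 and Kcnip4 the sums were 803 and 562 CPM in VLMC, 1393 and 1042 CPM in Micro-PVM and 1863 and 1596 CPM in Astro. The part of neuron markers in the VLMC sums was not tested beyond the alternatives given in the closing section.

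The astrocyte markers were not even across the list. Slc1a3, the glutamate transporter GLAST, was at 1338 and 1300 CPM in VLMC and at 4067 and 2479 CPM in cluster 11, against 4901 and 3281 CPM in Astro. Aqp4 had no UMI in cluster 11, Slc1a2 was at 32.0 and 41.1 CPM and Gpc5 at 19.2 and 15.7 CPM, where Astro had 458 and 498, 8577 and 7265, and 6138 and 4800 CPM. In cluster 11 these 3 astrocyte markers were thus at or near 0, while Slc1a3 was below Astro in each library by less than the whole VLMC label was.

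Of 12 mural markers 7 and 9 had a UMI. The list summed to 160 and 195 CPM in VLMC, 46.1 and 49.99 CPM in Micro-PVM, 192 and 196 CPM in Astro and 54.4 and 68.0 CPM in SMC-Peri, and to 396 and 354 CPM in the VLMC nuclei of cluster 11. It was thus above Micro-PVM and SMC-Peri and close to Astro in both libraries. The sum was led by Vtn (69.9 and 50.7 CPM) and Pdgfrb, while Rgs5 was at 2.05 and 0 CPM and Kcnj8 and Higd1b had no UMI. Of 10 endothelial markers 6 had a UMI in each library, and the sums of 653 and 198 CPM were almost all Mecom (610 and 137 CPM), which lay in cluster 15 at 1101 and 885 CPM. Cldn5, Adgrl4 and Emcn had no UMI. The 7 oligodendrocyte markers summed to 127 and 93.5 CPM, and of the 7 precursor markers, at 144 and 183 CPM, Sox10, Olig1 and Olig2 had no UMI. Mecom was called higher than in both labels in the whole sums and in neither with clusters 11 and 25 alone (adjusted p = 0.676 and 0.941).

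With 1 library of each sex, the male and female VLMC sums were compared as values with no test. Of 6927 genes with at least 20 UMIs in 1 of the sums, 491 were over 2-fold higher in the male (7.09%) and 508 in the female sum (7.33%), as ratios of CPM with 0.5 CPM added. With only clusters 11 and 25 in the sums these counts were 152 and 272 of 5249. The 4 largest male ratios were the Y-linked genes Ddx3y, Kdm5d, Eif2s3y and Uty. Ddx3y had 43 male and 0 female UMIs and Uty 146 and 2. The next 4 were Gm10801, Igsf5, Rab40b and E130304I02Rik, of which Igsf5 (107 and 8.96 CPM) lay in cluster 15 alone, the cluster with the larger male share.

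In the other direction Xist was at 18.5 and 1372 CPM. Of the 9 Xist UMIs of the male library, 8 were in 1 nucleus of cluster 25 that had no Uty UMI, so 1 male nucleus did not match its library. Dthd1 (0 and 88.6 CPM), Rp1 (0 and 37.8 CPM), Tm4sf1 (2.05 and 50.7 CPM) and Slc25a18 (2.05 and 44.8 CPM) lay mostly in cluster 21, where the male library had 2 nuclei. Agtr1b, an angiotensin receptor (0 and 20.9 CPM), lay in female nuclei of cluster 25. Ehbp1l1 and Mthfsl had 23 and 20 female UMIs, spread over all 4 clusters, and no male one. Sex, library and the make-up of the label cannot be told apart in these values.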

How the data were processed

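Nuclei sorted for GFP and DRAQ5 were profiled by droplet snRNAseq in 2 libraries of 4 pooled animals each. The authors aligned reads with Cell Ranger (3.1.0 in the labels) to a mm10 pre-mRNA reference and deposited UMI counts per gene and barcode, unnormalized, with a table of nuclei that holds their Seurat clusters, their predicted labels and the percent of mitochondrial UMIs. The labels were transferred from a published cortex reference. The members and the 23 gene lists (392 symbols, all matched) were chosen with earlier results of these data known.

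Counts of the labelled nuclei were summed for 6 labels (each with at least 20 nuclei, 5 per library) and 2 libraries, giving 12 sums. These were fitted with edgeR 4.0.16 (TMM, filterByExpr, quasi-likelihood test, R 4.3.3) with the label as the term, and p-values were adjusted by Benjamini-Hochberg over all genes tested. SE is the log2 fold change over the square root of F. Ratios between the male and female sums added 0.5 CPM. Shares have exact Clopper-Pearson and CPM exact Poisson 95% intervals, and a share of 0 allows 3 counts. Nuclei were thinned to 2300 UMIs. Near-empty barcodes with at most 50 UMIs gave the free RNA profile (467734 and 896867 UMIs).

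Genes were named by 5 rules: the 3 markers and list members, the 15 genes with the largest smaller fold change of those called higher in both comparisons, the 8 largest ratios in each direction between the libraries, the 8 leading genes of clusters with at least 20 VLMC nuclei, and Atf3 with the reporter. Genes that entered the first 15 in clusters 11 and 25 alone were named after their values were seen. All sums of a library were made from 1 pool of 4 animals, which pairs them. The deviations of the 2 libraries correlated between labels by -0.0446 to 0.495 over 15 pairs of labels (median 0.158, 9462 genes).

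Alternatives were RLE scaling, DESeq2 1.42.0, no filter, the library as a block, limits on genes (6000) and mitochondrial share (5%), at least 1000 UMIs, nuclei with at least 3 microglia or 10 neuron list UMIs left out, free RNA subtracted, only clusters 11 and 25, and each library left out. Cluster 11 alone and the sex comparison in clusters 11 and 25 were chosen after seeing the data. Some genes, and 1 alternative that needs one of them, are not reported here. The fit was tested on simulated data.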

Additional observations from a re-analysis of the deposited data

How the results depend on the processing

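The fold changes of 220 genes against Micro-PVM and 140 against Astro were recomputed under 13 alternatives where the gene could be fitted, and 124 of 4680 values could not be had, 83 of them with the 54 nuclei below. Of the 4556 others, 3948 kept their direction and their side of the threshold, 265 no longer passed it, 323 moved where no test was possible and 20 turned. With the library as a block, which pairs the sums of a library, 2308 genes were higher and 2353 lower than in Micro-PVM and 1051 higher and 1012 lower than in Astro, and no call of a named gene changed. Leaving out a library left 1 sum per label and no test of its own, so those values have none. The cause of the shifts below was not tested.

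Leaving out nuclei with microglia or neuron list UMIs kept 54 of 274 VLMC nuclei. It gave 2380 calls against Micro-PVM (1237 higher, 1143 lower), 568 higher against Astro and 431 higher in both. Subtracting free RNA (19.3% and 25.3% of the UMIs) gave 899 calls against Astro (423 higher, 476 lower) and 273 higher in both. It ended 68 of 139 named calls against Astro and 26 of 218 against Micro-PVM, and it took Atf3 to 0 CPM in both libraries. The fraction was set by taking every UMI of the 10 neuron markers in VLMC as free RNA, and it was taken from every label. Celf2 and Kcnip4 held most of those UMIs, as the markers summed to 2507 and 2985 CPM with them and 803 and 562 CPM without. Whether their RNA in VLMC was free RNA was not tested, so the fraction may be too large. With cluster 11 alone 1412 genes were higher than in Micro-PVM. The share of VLMC was 4.30% and 5.43% of nuclei outside the neuron set, 1.87% and 3.02% with clusters 11 and 25 alone, and 3.59% in the male library at 1000 UMIs or more. The male share with an Atf3 UMI was 0 after thinning, and the sex ratios past the limit numbered 152 and 272 in clusters 11 and 25.

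Fold changes (log2) turned against Micro-PVM with cluster 11 alone for Abcc4 (-0.57), Adamtsl1 (-1.05), Aldh1l1 (-0.048), Aqp4 (-5.29), Igfbp5 (-0.22), Ntrk2 (-0.82) and Slit3 (-0.72), and with clusters 11 and 25 for Aqp4 (-5.31) and Ntrk2 (-1.07). They turned with the 54 nuclei for Adamtsl3 (-4.36), Cldn11 (-5.59), Fbn2 (-5.16) and Il33 (-4.96), and without the female library for Cldn11 (-0.37, against 2.97 without the male library) and Il33 (-0.37 against 3.97). Against Astro cluster 11 alone turned Adamtsl1 (-2.88), Mecom (-0.22), Rspo3 (-0.86), Slc16a9 (-0.79) and Slit3 (-0.51).

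In simulated data of the same depth over 9462 genes, 4-fold changes were recovered for 76.2% of genes against Micro-PVM and 56.2% against Astro, and 2-fold changes for 20% and 8.42%. The simulated spread was set below that of the data (common dispersion 0.0551). All labels were given the same gene profile, and the sums were drawn independently. Recovery in the real sums may thus be lower. A low gene that did not pass was therefore often beyond what this depth can show.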
